A study of Homo sapiens with 6 samples.

Results

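The potassium channel genes described here are the protein-coding genes whose symbol begins with KCN. The rule found 97 of them among the 58395 genes of the deposited table, with 40 voltage-gated pore (alpha) subunits, 8 calcium- or sodium-activated channels, 16 inward rectifiers, 15 2-pore channels and 18 accessory subunits. All values come from 786-O cells, an established human renal carcinoma line of clear cell origin without functional VHL, grown in RPMI-1640 medium with fetal bovine serum. The sgPLOD2 group (3 libraries) holds cells in which PLOD2, the gene for a collagen lysyl hydroxylase, was targeted with CRISPR/Cas9, and the sgControl group (3 libraries) holds cells with a control guide. No drug or time point is given for either group. The labels name neither the guide sequences nor whether the sgPLOD2 cells were 1 clone or a pool, nor whether replicates were separate cultures. The p-values therefore reflect library-to-library spread alone, and that spread may be technical.

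Potassium channels let potassium ions leave or enter the cell along their electrochemical gradient, and so set the membrane potential. Voltage-gated channels assemble from pore subunits that open on depolarisation, calcium-activated channels open when intracellular calcium rises, 2-pore channels carry a background leak, and inward rectifiers stabilise the resting potential. Accessory subunits do not form a pore but alter the trafficking or gating of the subunits they bind. In kidney epithelium such channels recycle potassium across the membrane and keep up the driving force for salt transport.

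PLOD2 itself had 5.98, 10.1 and 6.64 FPKM (fragments per kilobase of gene, scaled to the mapped fragments of the library) in the sgPLOD2 libraries, against 26.8, 25.7 and 21.5 FPKM in the sgControl libraries. Its mean was 7.57 ± 2.21 FPKM in sgPLOD2 and 24.7 ± 2.80 FPKM in sgControl (SD, n = 3 each), a log2 fold change of -1.61 ± 0.18 (SE, limma adjusted p = 0.000509). An exact 2-sided permutation test gave p = 0.1, the smallest that 3 against 3 allows. The FPKM totals ran from 229485 to 268612 per library, and absolute depth per library is unknown. Of 8 renal carcinoma markers, 7 averaged 1 FPKM or more across the 6 libraries. Among them, PAX8 had 22.6, 22.7 and 26.7 FPKM in sgPLOD2 and 36.3, 24.6 and 23.1 FPKM in sgControl. Of these 7, 1 was higher and 3 were lower in sgPLOD2 at a limma adjusted p under 0.05. Over all tested genes 29.5% were higher and 23.5% lower, and 7 markers are too few to be set apart from these shares. CA12 was among the lower, with a mean of 9.65 FPKM against 31.9 FPKM in sgControl (limma adjusted p = 4.8e-05). The remaining marker, CA9, had 0.285 to 0.368 FPKM in sgPLOD2 and was listed at 0 in all 3 sgControl libraries. Of 4 muscle and 4 endothelial markers, every one had a mean under 0.1 FPKM in both groups, and of the leukocyte markers CD3E was listed at 0. The summed leukocyte level, nearly all of it CD68, was 5.29 to 6.41 FPKM in sgPLOD2 and 11.4 to 18.2 FPKM in sgControl. The 7 neuron markers summed to 73.7 to 82.6 FPKM in sgPLOD2 and 40.3 to 66.4 FPKM in sgControl, mostly NEFL and TUBB3, while STMN2 was listed at 0. Neither NEFL nor TUBB3 passed (limma adjusted p = 0.138 and 0.0669), and SNAP25 was higher in sgPLOD2 (limma adjusted p = 0.0285). RBFOX3, SYT1 and SYP had lower means in sgPLOD2, RBFOX3 with 0.00195 FPKM against 0.123 FPKM in sgControl. The part of these differences in the channel results was not tested.

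Few KCN genes were expressed, and the set differed between the groups. With a group mean of at least 1 FPKM taken as expressed, 8 KCN genes were expressed in sgPLOD2 and 6 in sgControl, and 11 in at least 1 of the groups. KCNS3, KCNK3 and KCNMA1 reached that level in both groups. KCNIP1, KCNIP3, KCNK6, KCNN4 and KCNQ5 reached it in sgPLOD2 but not in sgControl, and KCNAB2, KCNH2 and KCNK1 in sgControl but not in sgPLOD2. A further 12 KCN genes had a mean of 0.1 to 1 FPKM in their higher group, 44 stayed under 0.1 FPKM in both groups without being 0 throughout, and 30 were listed at 0 in all 6 libraries. By the same threshold, 11 of the 97 KCN genes (11.3%) and 9916 of all 19815 protein-coding genes were expressed in at least 1 group. Because an FPKM of exactly 0 may reflect an estimate that failed, a gene at 0 is only said to be listed there. The 30 genes at 0 throughout also had a mean normalized count of 0 in the authors' deposited table. In bulk RNA, fewer cells that express a gene and less RNA per cell cannot be told apart.

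**Figure D1:**
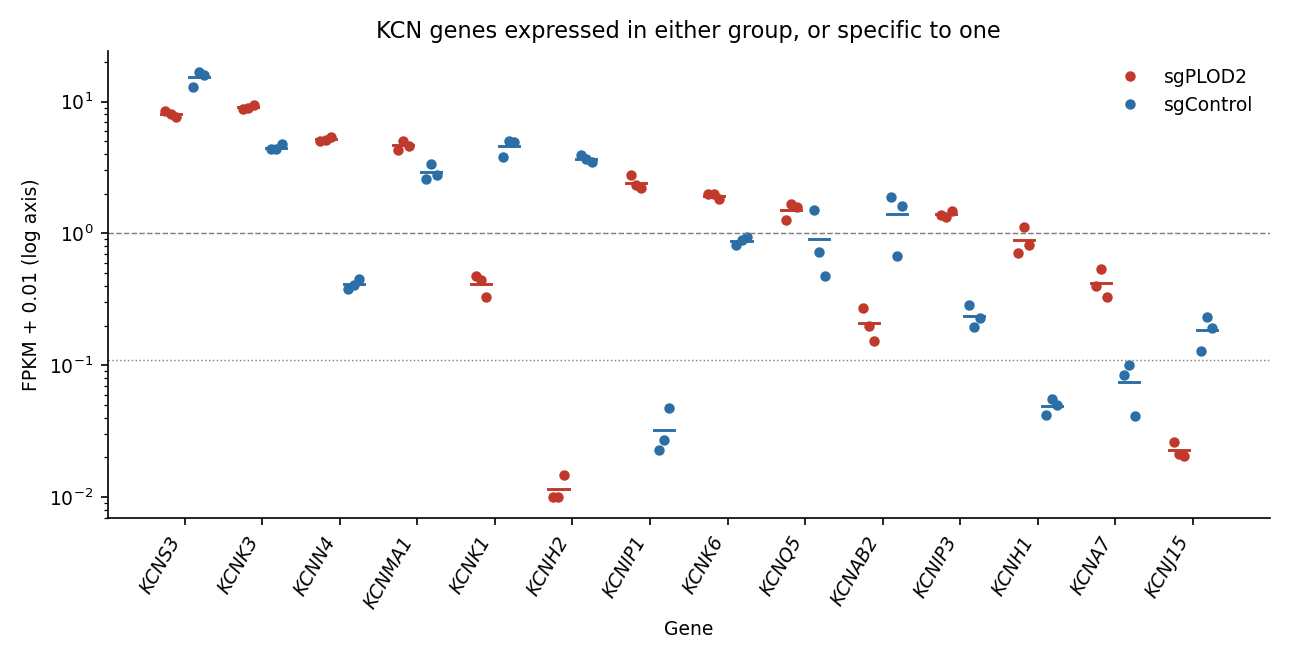
FPKM plus 0.01 on a log axis for the 11 KCN genes averaging 1 FPKM or more in either group and 3 others specific to 1 group (KCNH1, KCNA7 and KCNJ15). Points are libraries (3 sgPLOD2 in red on the left, 3 sgControl in blue on the right), short bars are means, and the grey lines mark 1 FPKM and 0.1 FPKM; the points of KCNH2 and KCNIP1 lie furthest apart, in opposite directions, and those of KCNQ5 overlap.

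The summed FPKM of all KCN genes was 39.7, 40.3 and 39.5 in the sgPLOD2 libraries, against 36.3, 39.6 and 39.4 in the sgControl libraries. The mean sum was 39.8 ± 0.414 FPKM in sgPLOD2 and 38.4 ± 1.87 FPKM in sgControl (SD, n = 3 each), and the groups overlapped. As a share of all FPKM in the library the sum was 0.0166% to 0.0176% in sgPLOD2 and 0.0135% to 0.0163% in sgControl, with no overlap. That share also depends on the library totals, which were 229485 to 238801 FPKM in sgPLOD2 and 243422 to 268612 FPKM in sgControl. Within the KCN sum the make-up differed between groups. KCNS3 made up 19.4% to 21.5% of it in sgPLOD2 and 35.7% to 42.2% in sgControl. KCNK3 took 22.1% to 23.9% in sgPLOD2 and 10.9% to 12.0% in sgControl, so that in sgPLOD2 it was the most abundant KCN gene per length in all 3 libraries. KCNN4 contributed 12.5% to 13.5% in sgPLOD2 and 1.00% to 1.11% in sgControl. The voltage-gated alpha subunits together had 11.7 ± 0.437 FPKM in sgPLOD2 and 20.6 ± 1.52 FPKM in sgControl. For the calcium- or sodium-activated channels the sums were 9.90 ± 0.398 FPKM in sgPLOD2 and 3.37 ± 0.449 FPKM in sgControl.

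**Figure D2:**
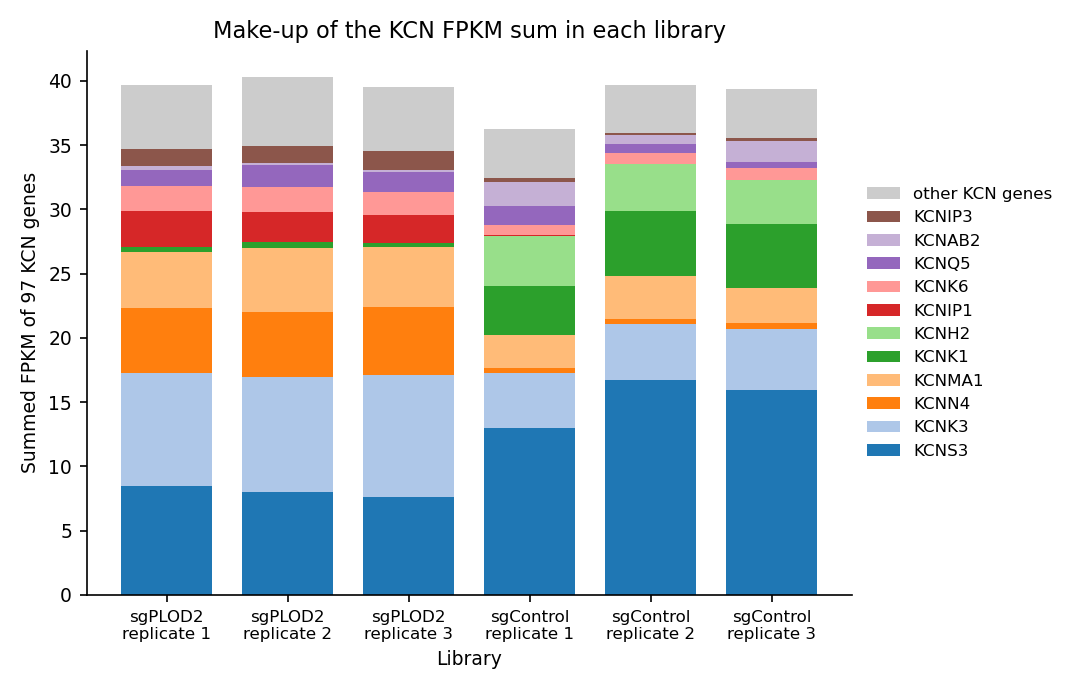
Stacked bars of the summed FPKM of the 97 KCN genes in each library (3 sgPLOD2 on the left, 3 sgControl on the right), with the 11 expressed genes in colour and the rest in grey. The bars are 36.3 to 40.3 FPKM high; KCNK3, KCNN4 and KCNIP1 fill more of the sgPLOD2 bars, and KCNS3, KCNK1 and KCNH2 more of the sgControl bars.

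Of the 97 genes, 9 averaged 1 FPKM or more across the 6 libraries and entered the test, in which limma was fitted to log2(FPKM + 1) of 10469 genes. At a Benjamini-Hochberg adjusted p under 0.05, 5 were higher in sgPLOD2 (KCNN4, KCNIP1, KCNK3, KCNK6 and KCNMA1) and 3 were lower (KCNH2, KCNK1 and KCNS3). Over all genes tested, 29.5% were called higher and 23.5% lower in sgPLOD2. With so many calls across the transcriptome, and with a filter that some members passed only through 1 group, the 8 calls of 9 are a description of these genes and not of a family effect. The median log2 fold change was 0.54 for the 9 members, which is the value of KCNMA1, and 0.06 for all tested genes. With genes of at least 0.1 FPKM included, the median was 0.16 for 22 members and 0.05 for all genes fitted. The member medians rest on the same kind of filter and likewise describe these genes, not a family effect. Rescaling each library to the same total (TPM) moved the median of all genes to 0.16 and the share of calls that were higher to 66.9%, against 55.7% without rescaling. Median-of-ratios scaling put that share at 47.1%. Each of the 8 called genes kept its direction and its call under all 3 other scalings.

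Sequences of the 4 genes with the largest fold changes in the test (KCNH2, KCNN4, KCNK1 and KCNIP1) show what lies directly before their RefSeq starts. Given are the 250 bases upstream of the RefSeq start on GRCh38.p14, written 5′ to 3′ on the gene's strand. Capitals mark the core bound by hypoxia-inducible factors, ACGTG or GCGTG on either strand; these factors are known to be stabilised in cells without VHL.
KCNH2, chr7:150978322-150978571, minus strand: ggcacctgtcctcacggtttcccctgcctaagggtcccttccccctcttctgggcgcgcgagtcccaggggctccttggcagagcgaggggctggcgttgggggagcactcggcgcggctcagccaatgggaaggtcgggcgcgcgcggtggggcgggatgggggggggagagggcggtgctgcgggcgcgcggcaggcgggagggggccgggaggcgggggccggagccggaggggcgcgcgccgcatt
KCNN4, chr19:43780974-43781223, minus strand: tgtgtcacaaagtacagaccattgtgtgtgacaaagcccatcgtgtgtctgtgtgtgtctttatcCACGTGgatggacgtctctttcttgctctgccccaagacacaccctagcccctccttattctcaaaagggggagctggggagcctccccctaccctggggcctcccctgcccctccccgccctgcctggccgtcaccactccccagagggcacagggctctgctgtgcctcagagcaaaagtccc
KCNK1, chr1:233613856-233614105, plus strand: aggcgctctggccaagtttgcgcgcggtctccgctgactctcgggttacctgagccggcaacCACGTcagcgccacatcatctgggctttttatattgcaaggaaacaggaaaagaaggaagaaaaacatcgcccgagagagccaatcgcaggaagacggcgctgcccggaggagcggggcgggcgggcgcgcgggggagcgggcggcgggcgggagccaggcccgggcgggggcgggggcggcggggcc
KCNIP1, chr5:170353237-170353486, plus strand: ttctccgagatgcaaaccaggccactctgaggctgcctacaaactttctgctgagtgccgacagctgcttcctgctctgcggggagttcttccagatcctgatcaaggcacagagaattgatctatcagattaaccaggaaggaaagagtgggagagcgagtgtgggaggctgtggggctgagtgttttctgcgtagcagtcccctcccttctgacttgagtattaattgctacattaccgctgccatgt
The KCNN4 window holds 2 matches that overlap as a palindrome, the KCNK1 window holds 1, and the windows of KCNH2 and KCNIP1 hold 0. Such a match is common, since 43.2% of 35116 promoter windows of this length in the table hold one, as do 40% of the 110 windows of 72 KCN genes found in it. GC content was 77.2% for KCNH2, 69.2% for KCNK1, 60% for KCNN4 and 52% for KCNIP1, beside a median of 58% over all windows. By the gene coordinates of the deposited table, all 250 bases of the KCNN4 window lie inside the gene, whose start there is further upstream, while the other 3 windows lie outside their genes. KCNH2 has 5 starts in the table and KCNIP1 has 2, the first listed being shown, and gene-level FPKM does not tell which start these cells use.

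Among the voltage-gated alpha subunits, KCNH2 (chr7:150944961-150978321), which encodes the hERG channel known for the repolarising current of the heart, stood furthest apart. It was listed at 0, 0 and 0.00463 FPKM in the sgPLOD2 libraries, against 3.95, 3.65 and 3.45 FPKM in the sgControl libraries. The transcript was thus at or near 0 in each sgPLOD2 library and well above 1 FPKM in each sgControl library. The log2 fold change was -2.22 ± 0.08 (SE, limma adjusted p = 4.22e-06), a value that the pseudocount of 1 limits. In the authors' deposited table KCNH2 had a log2 fold change of -11.24 with an adjusted p of 1.11e-49.

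KCNH1, which encodes the related ether-à-go-go channel, showed the opposite pattern at a lower level. Its FPKM values were 0.706, 1.11 and 0.807 in sgPLOD2, against 0.0317, 0.0459 and 0.0397 in sgControl. With a mean under 1 FPKM it was outside the test, but when all 16278 genes averaging 0.1 FPKM or more were fitted, KCNH1 was higher by 0.85 ± 0.09 on the log2 scale (SE, limma adjusted p = 0.0004). In that wider fit 26.6% of genes were called higher and 19.0% lower in sgPLOD2, and among the 22 KCN genes in it 9 were called higher and 4 lower. The 2 ether-à-go-go genes therefore changed in opposite directions, and in each group 1 of them was under 0.1 FPKM in every library. In the annotation KCNH1 overlaps other genes on its own strand, and how their shared reads were counted is not known.

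KCNS3 (chr2:17877847-18361616) encodes an electrically silent subunit that conducts only when joined with pore subunits of another subfamily. It had 8.51, 7.98 and 7.65 FPKM in sgPLOD2, against 12.9, 16.7 and 16.0 FPKM in sgControl, where it was the most abundant KCN gene per length. The groups did not overlap, and KCNS3 was lower in sgPLOD2, with a log2 fold change of -0.83 ± 0.11 (SE, limma adjusted p = 0.00098).

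KCNQ5, a subunit of the M-type current of neurons and smooth muscle, had 1.26, 1.67 and 1.56 FPKM in sgPLOD2, against 1.49, 0.716 and 0.465 FPKM in sgControl. The first sgControl library lay within the sgPLOD2 range, and the difference did not pass (log2 fold change 0.43 ± 0.19 SE, limma adjusted p = 0.0963). Without that library the fold change was 0.65 with an adjusted p of 0.0042. KCNQ5 lies on chromosome 6, where the median log2 fold change of the 511 tested genes was 0.35, and with that median removed its own was 0.09.

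KCNA7, a shaker-type subunit, had 0.390, 0.527 and 0.318 FPKM in sgPLOD2, against 0.0737, 0.0910 and 0.0311 FPKM in sgControl. It was higher by 0.40 ± 0.07 on the log2 scale in the wider fit (SE, limma adjusted p = 0.00289). KCNC4, a subunit of fast inactivating channels, had 0.541 to 0.629 FPKM in sgPLOD2 and 0.405 to 0.508 FPKM in sgControl, and KCND1 had 0.135 to 0.176 FPKM in sgPLOD2 and 0.0755 to 0.149 FPKM in sgControl. Neither passed the test (limma adjusted p = 0.134 and 0.37). Of the 40 alpha subunits, 16 were listed at 0 in every library, KCNQ1 and KCND2 among them.

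The 2 calcium-activated channels that were expressed both rose in sgPLOD2. KCNN4 (chr19:43766533-43781257), which encodes the intermediate-conductance channel gated through calmodulin, had 5.04, 5.06 and 5.33 FPKM in sgPLOD2, against 0.369, 0.397 and 0.438 FPKM in sgControl. Each sgPLOD2 library was more than 10 times each sgControl library, and the ratio of means was 12.8. Its log2 fold change was 2.13 ± 0.08 (SE, limma adjusted p = 4.47e-06), the largest rise among the tested members. KCNMA1 (chr10:76869601-77638369), the pore of the large-conductance channel gated by both calcium and voltage, had 4.31, 5.02 and 4.62 FPKM in sgPLOD2, against 2.57, 3.37 and 2.75 FPKM in sgControl. It rose by 0.54 ± 0.11 on the log2 scale (SE, limma adjusted p = 0.00549), without overlap between the groups. KCNMA1 overlaps annotated antisense RNAs, and without a known strand setting their reads cannot be told apart from its own.

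Auxiliary subunits of the large-conductance channel differed from one another. KCNMB4, its beta subunit best known from neurons, had 0.585, 0.639 and 0.867 FPKM in sgPLOD2, against 0.967, 0.886 and 0.830 FPKM in sgControl, and the libraries overlapped (log2 fold change -0.16 ± 0.09 SE in the wider fit, limma adjusted p = 0.162). LRRC38, a gamma subunit outside the KCN family, had 0.283, 0.360 and 0.295 FPKM in sgPLOD2 and was listed at 0 in each sgControl library. It was called higher in sgPLOD2 in the wider fit (limma adjusted p = 0.000691). The gamma subunit genes LRRC26 and LRRC52 were listed at 0 in every library, and LRRC55 was under 0.1 FPKM in each. The beta subunit genes KCNMB1, KCNMB2 and KCNMB3 were also under 0.1 FPKM in each library. Of the other 2 calcium-activated small-conductance genes detected, neither reached a group mean of 0.1 FPKM.

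The 2-pore channels held 2 rises and 1 fall. KCNK3 (chr2:26692690-26733420), the acid-sensitive leak channel TASK-1, had 8.77, 8.96 and 9.44 FPKM in sgPLOD2, against 4.33, 4.33 and 4.72 FPKM in sgControl. The ratio of means was 2.03, and the log2 fold change was 0.88 ± 0.08 (SE, limma adjusted p = 0.000225). KCNK1 (chr1:233614106-233672514), which encodes TWIK-1, went the other way, with 0.462, 0.433 and 0.318 FPKM in sgPLOD2 and 3.79, 5.01 and 4.94 FPKM in sgControl. Its log2 fold change was -1.98 ± 0.11 (SE, limma adjusted p = 2.4e-05), and its mean was 11.3 times higher in sgControl. KCNK6 (chr19:38319845-38332076), which encodes the closely related TWIK-2 found in lysosomal and plasma membranes, had 1.97, 1.96 and 1.81 FPKM in sgPLOD2, against 0.809, 0.879 and 0.925 FPKM in sgControl. It rose by 0.64 ± 0.08 on the log2 scale (SE, limma adjusted p = 0.00067). The pair of TWIK genes thus changed in opposite directions, each without overlap between the groups. Summed over the 15 members, the 2-pore genes had 11.6 ± 0.245 FPKM in sgPLOD2 and 10.1 ± 0.862 FPKM in sgControl (SD, n = 3 each).

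No inward rectifier was expressed at 1 FPKM in either group. KCNJ15, an inward rectifier of kidney tubule, had 0.0163, 0.0111 and 0.0105 FPKM in sgPLOD2, against 0.119, 0.224 and 0.183 FPKM in sgControl, so that it was seen above 0.1 FPKM in each sgControl library and no sgPLOD2 library. In the authors' deposited table its log2 fold change was -3.88 with an adjusted p of 8.97e-20. KCNJ15 overlaps DSCR8 and DSCR10 on its own strand in the annotation, and how shared reads were counted is not known. KCNJ16, known to join with other rectifiers in kidney, had 0.614, 0.488 and 0.306 FPKM in sgPLOD2 and 0.353, 0.221 and 0.260 FPKM in sgControl, which overlapped (limma adjusted p = 0.111 in the wider fit). KCNJ14 had 0.518 to 0.579 FPKM in sgPLOD2 and 0.224 to 0.353 FPKM in sgControl. It was called higher in the wider fit (0.25 ± 0.06 SE on the log2 scale, limma adjusted p = 0.016), a call lost in 3 of 15 alternatives, and its gene overlaps GRWD1, from which its reads may not be separable.

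Among the accessory subunits, 2 potassium channel-interacting proteins were higher in sgPLOD2. KCNIP1 (chr5:170353487-170736632) and KCNIP3 (chr2:95297327-95386077) encode calcium-binding proteins that attach to channels built from KCND subunits, and KCNIP3 is also known as the transcriptional repressor DREAM. KCNIP1 had 2.75, 2.33 and 2.18 FPKM in sgPLOD2, against 0.0126, 0.0172 and 0.0378 FPKM in sgControl. It was near 0 in each sgControl library, and in sgPLOD2 it rose by 1.74 ± 0.09 on the log2 scale (SE, limma adjusted p = 1.28e-05). KCNIP1 overlaps another annotated gene on its own strand and KCNMB1 on the opposite strand, and how shared reads were counted is not known. KCNIP3 had 1.36, 1.33 and 1.47 FPKM in sgPLOD2, against 0.276, 0.184 and 0.218 FPKM in sgControl, and was higher by 0.96 ± 0.07 in the wider fit (SE, limma adjusted p = 8.19e-05). The pore genes these proteins are named for were low in both groups, with KCND1 under 0.2 FPKM, KCND3 under 0.01 FPKM and KCND2 listed at 0. KCNIP2 and KCNIP4 were under 0.1 FPKM in every library.

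KCNAB2, a beta subunit of shaker-type channels with an aldo-keto reductase fold, had 0.261, 0.189 and 0.142 FPKM in sgPLOD2, against 1.89, 0.660 and 1.62 FPKM in sgControl. The second sgControl library was the lowest of its group, yet above each sgPLOD2 library. KCNAB2 was lower in sgPLOD2, with a log2 fold change of -0.96 ± 0.20 in the wider fit (SE, limma adjusted p = 0.00712). It overlaps NPHP4 on the opposite strand, whose reads may be mixed with its own. KCNE5, a small single-pass subunit that modulates KCNQ1, had 0.156, 0.311 and 0.237 FPKM in sgPLOD2 and 0.613, 0.254 and 0.622 FPKM in sgControl, which overlapped (limma adjusted p = 0.0877 in the wider fit), and it shares its locus with ACSL4. KCNE4 differed by -0.01 ± 0.09 on the log2 scale (SE, limma adjusted p = 0.946).

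**Figure D3:**
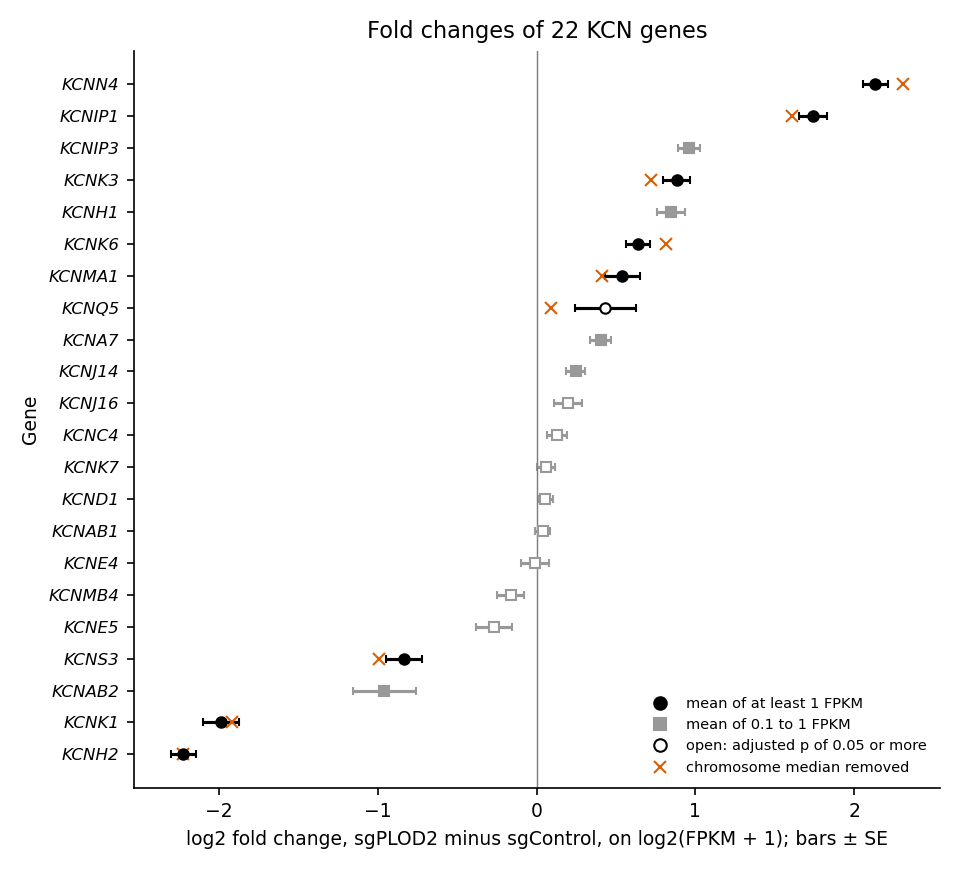
Log2 fold changes (sgPLOD2 minus sgControl, on log2(FPKM + 1)) of the 22 KCN genes averaging 0.1 FPKM or more, with ± SE bars. Black circles are the 9 genes of the main test, grey squares the 13 of the wider fit, open symbols did not pass, and crosses give the 9 with their chromosome's median removed; KCNN4 and KCNIP1 lie furthest right, KCNH2 and KCNK1 furthest left, and the KCNQ5 cross lies near 0.

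By a stricter reading, a gene was taken as specific to a group when every library of that group was at 0.1 FPKM or more and every library of the other was under it. KCNIP1, KCNH1 and KCNA7 met this in sgPLOD2, and KCNH2 and KCNJ15 in sgControl. Among all 19815 protein-coding genes, 1.46% were specific to sgPLOD2 and 0.843% to sgControl by the same rule, so that with 3 and 2 of 97 the KCN counts are too small to be set apart from these shares. Of these 5 KCN genes, KCNIP1 and KCNH2 also had a mean of at least 1 FPKM in their group. At the edge of detection, KCNJ12, KCNK10 and KCNK13 were above 0 in each sgPLOD2 library, at 0.0202 to 0.0839 FPKM, and listed at 0 in each sgControl library. KCNK10 and KCNK13 lie on chromosome 14, where the median log2 fold change of the 344 tested genes was 0.54. Its part in their values was not tested. KCNJ8 and KCNK2 were above 0 in each sgControl library, at 0.00732 to 0.0614 FPKM, and listed at 0 in each sgPLOD2 library. Of all protein-coding genes, 1.01% were above 0 in each sgPLOD2 library alone and 0.505% in each sgControl library alone. KCNJ8 is the pore of a channel that needs the sulfonylurea receptor ABCC9. That partner had 0.0490, 0.0779 and 0.0322 FPKM in sgPLOD2, against 0.615, 0.611 and 0.477 FPKM in sgControl, and its log2 fold change was -0.57 ± 0.06 in the wider fit (SE, limma adjusted p = 0.000392). The authors' deposited table tested 54 KCN genes and called 14 higher and 7 lower in sgPLOD2, where it called 18.5% of 22870 genes higher and 17.0% lower.

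**Figure D4:**
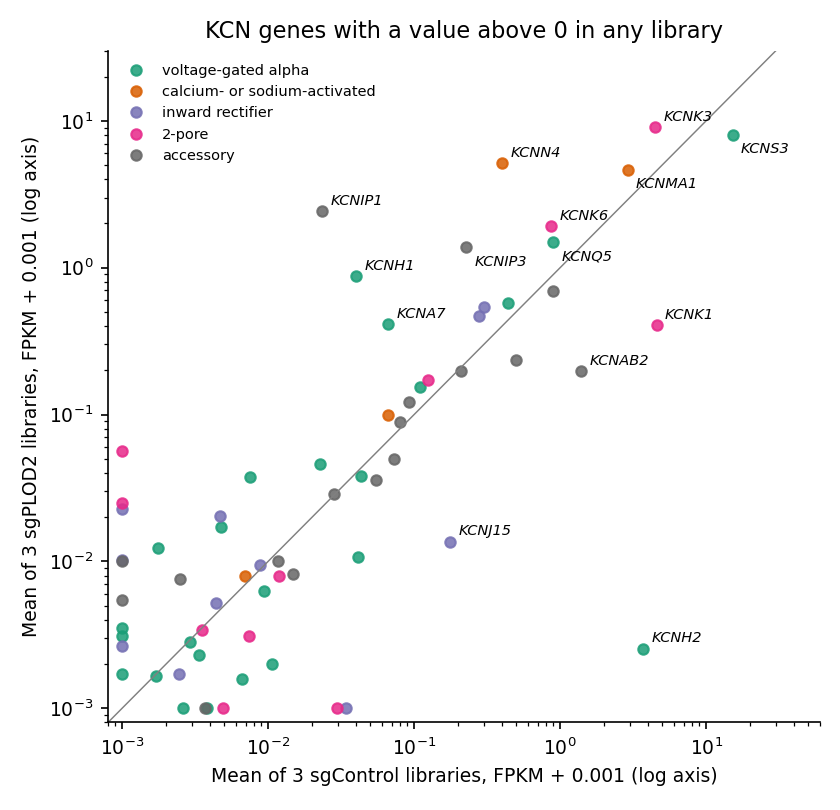
Mean FPKM plus 0.001 of 3 sgPLOD2 libraries (vertical) against 3 sgControl libraries (horizontal), both on log axes, for the KCN genes above 0 in any library, coloured by family. The diagonal marks equal means; KCNIP1, KCNH1 and KCNN4 lie far above it and KCNH2, KCNK1 and KCNJ15 far below it, while KCNS3, KCNK3 and KCNMA1 lie near its upper end.

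Other genes of potassium handling were read from lists drawn from textbook knowledge. Their counts stand beside the same shares of all tested genes, 29.5% higher and 23.5% lower in sgPLOD2, and the lists are too short to be set apart from them. Of 12 Na,K-ATPase subunits and regulators, the pump that builds the potassium gradient, 4 were tested, 0 were called higher and 1 was called lower. That was ATP1B1, its beta-1 subunit, with 17.2, 20.8 and 18.4 FPKM in sgPLOD2 and 29.4, 32.6 and 30.7 FPKM in sgControl (log2 fold change -0.69 ± 0.10 SE, limma adjusted p = 0.0011).

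Of 14 cation-chloride cotransporters and their kinases, 7 were tested, with 3 higher and 2 lower, beside 29.5% and 23.5% of all tested genes. SLC12A7, which carries potassium and chloride out of the cell, had 3.35, 3.58 and 3.76 FPKM in sgPLOD2, against 9.27, 10.4 and 9.36 FPKM in sgControl (log2 fold change -1.22 ± 0.09 SE, limma adjusted p = 7.34e-05). SLC12A2, which brings sodium, potassium and chloride in, had 1.47, 2.06 and 1.56 FPKM in sgPLOD2, against 0.776, 0.885 and 0.634 FPKM in sgControl, and rose by 0.61 ± 0.11 (SE, limma adjusted p = 0.00359). The exporter was therefore lower and the importer higher in sgPLOD2, and neither pair of groups overlapped. SLC12A9, the other member called lower, had a log2 fold change of -0.52 ± 0.09 (SE, limma adjusted p = 0.00283).

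Among 8 other potassium-permeable channels, 4 were tested, 0 were higher and 2 were lower. Those lower were TMEM38B, a cation channel of the endoplasmic reticulum (log2 fold change -0.45 ± 0.10 SE, limma adjusted p = 0.00771), and HCN2, a pacemaker channel (-0.44 ± 0.11 SE, limma adjusted p = 0.0139). HCN4, a related pacemaker gene below the level for the test, had 0.0758, 0.120 and 0.107 FPKM in sgPLOD2 and was listed at 0 in all 3 sgControl libraries. Calcium entry, which opens KCNN4 and KCNMA1, was read from 13 genes, of which 7 were tested, 2 were higher and 4 were lower, beside 29.5% and 23.5% of all tested genes. ORAI1, the pore of store-operated calcium entry, had 5.90, 6.24 and 6.87 FPKM in sgPLOD2, against 11.4, 15.6 and 16.8 FPKM in sgControl, and ORAI2 had 5.98, 6.31 and 7.11 FPKM in sgPLOD2, against 12.2, 13.4 and 13.8 FPKM in sgControl. Both were lower without overlap (log2 fold changes -1.08 ± 0.15 SE, limma adjusted p = 0.00102, and -0.92 ± 0.10 SE, limma adjusted p = 0.000345). STIM2, a calcium sensor of that pathway, rose by 0.53 ± 0.11 on the log2 scale (SE, limma adjusted p = 0.00562). None of the 9 accessory subunits outside the KCN family reached the mean of 1 FPKM needed for the test.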

How the data were processed

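RNA sequencing of 3 sgPLOD2 and 3 sgControl libraries was read from 1 deposited table. Per the file headers, the authors gave an FPKM per gene and library, and a comparison with a mean normalized count (read here as a signal), a log2 fold change and its error, a test score, and p-values. The submitters' processing notes name CASAVA, HISAT2 2.1.0, StringTie 1.3.4 and GRCh38 but not what each was used for. Which tool counted reads, with which strand setting and annotation, is not given in the sources used here. Overlapping genes could therefore share reads. In the authors' deposited table the mean normalized counts summed to 111599608; depth per library is unknown, so no counting interval is given.

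The test was limma 3.58.1 (R 4.3.3; lmFit, eBayes with trend) on log2(FPKM + 1), 2-sided, with Benjamini-Hochberg adjustment over all genes averaging 1 FPKM or more. The steps were tested on simulated data. PLOD2 was also tested by exact permutation in scipy 1.17.1. KCN genes of 0.1 to 1 FPKM come from a fit with a minimum mean of 0.1 FPKM, and their other settings were chosen after seeing the data. Overlaps came from GENCODE on GRCh38, promoters from RefSeq on GRCh38.p14, and gene coordinates from the deposited table.

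Named genes were PLOD2, each tested, expressed or group-specific KCN gene, and up to 3 called genes per other list. Further genes (weaker KCN genes, partners of named channels, cell markers and overlapping genes) were named after their values had been seen. The KCN genes and the lists were chosen with earlier results of these data known. Some genes picked this way are not reported here.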

Additional observations from a re-analysis of the deposited data

How the results depend on the processing

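The 9 tested KCN genes kept direction and side of the threshold in 153 of 155 alternatives (minimum FPKM, pseudocounts, scalings, variance models, chromosome medians removed, replicate block and each library left out). Both exceptions were KCNQ5, which passed on rescaling to equal totals (0.51, adjusted p = 0.0494) and without sgControl replicate 1. The pseudocount sets the size of a fold change of genes near 0 in a group: with 0.1 in place of 1, KCNH2 was at -5.22, KCNIP1 at 4.36, KCNN4 at 3.39, KCNK1 at -3.22 and KCNK6 at 1.05. Counts of KCN genes called depend on the filter, since it sets how many are tested. With no filter 12 of 67 were higher and 6 lower, beside 4084 higher and 2895 lower of all 28706 genes fitted. With a minimum of 0.1 FPKM 9 of 22 were higher and 4 lower, beside 4322 and 3091 of 16278. With a minimum of 5 FPKM 1 of 2 was higher and 1 lower, beside 1361 and 1649 of 5689. In the main test 3084 of all 10469 genes were higher and 2456 lower. With each library left out in turn, 5 to 6 KCN genes were higher and 3 were lower, all genes gave 2307 to 3228 higher and 1920 to 2572 lower, and PLOD2 ranged from -1.81 to -1.47. In the same fits 8 KCN genes were expressed in sgPLOD2 and 6 to 7 in sgControl. At an expression threshold of 0.1 FPKM these were 21 in sgPLOD2 and 19 in sgControl.

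Of the 13 genes of 0.1 to 1 FPKM, 183 of 195 alternatives kept direction and side. KCNJ14 lost its call in 3, and KCNE5, KCNJ16 and KCNMB4 gained one in 1 each. KCNAB1 also passed, as lower, with chromosome medians removed (adjusted p = 0.0209, against 0.527 without). Signs turned for KCNE4 (0.0061 with pseudocount 0.1, 0.0099 on rescaling, 0.040 without sgPLOD2 replicate 2, 0.074 without sgControl replicate 3), and, with chromosome medians removed, for KCNAB1 (-0.17) and KCNK7 (-0.082); the cause was not tested. The labels do not say whether replicate numbers pair the samples. Deviations of same-numbered libraries correlated at 0.0135, 0.135 and -0.0491, and those of differently numbered ones at -0.143 to 0.141. With 3 libraries per group, these values cannot decide it. With the replicate block, 5 KCN genes were higher and 3 lower, and 2984 and 2335 of all genes.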
